A study of Mus musculus with 96 samples.

Results

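The Zfp genes are the mouse genes named zinc finger protein with a number. They were taken as every gene on the array whose symbol is Zfp followed by a digit, with Zfp36 left out. The array held 92 of them among 16281 probes, and 87 had enough values to be tested, out of 11593 genes and unnamed probes tested in all. The other 5, Zfp28, Zfp773, Zfp239, Zfp46 and Zfp930, had values on 0, 27, 36, 81 and 85 of 96 arrays, too few in at least 1 group, and get no values here.

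RAW 264.7 is a mouse cell line with macrophage properties. Its cells received LPS, interferon gamma (IFNG) or 2-methyl-thio-ATP (2MA), or LPS with either of the other ligands. LPS, the bacterial lipopolysaccharide sensed by Toll-like receptor 4, was used at 100 ng (no volume is stated) with 100 pM LPS-binding protein, IFNG at 5 nM, and 2MA, an ATP analogue acting on purinergic receptors, at 500 uM, although the description of 1 sample has nM. RNA was taken at 1, 2 and 4 h, and with LPS alone also at 30 min, and each treated RNA was hybridised on 2-colour arrays against RNA of untreated cells of the same set and time. Each of the 16 groups held 3 sets, each in both dye orientations, which gave 96 arrays and 48 set values for a gene. All values below are log2 ratios of treated over untreated cells, and ± marks the SD over sets (n = 3 unless stated). A gene was called risen or fallen where limma gave an adjusted p under 0.05 over all 11593 genes tested. Nothing in the labels says that the sets came from separate cultures, so the spread behind each p-value may be technical. It is also not stated whether treatments shared untreated RNA.

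Of 16281 probes, between 13508 and 15004 had a value on an array, and precision is limited by how many arrays there were. A response had a standard error of 0.11 and a difference between treatments one of 0.16, as medians over genes. The ligands were seen in genes known for them: Tnf, a cytokine gene, was at 3.97 ± 0.37 after 30 min of LPS, and Irf1, an interferon-responsive transcription factor gene, was at 3.45 ± 0.50 after 1 h of IFNG. Of 8 macrophage markers 7 were on the array, and 6 had a value on most arrays, but so did all 3 T cell and all 3 fibroblast markers and 2 of 3 B cell markers. A ratio therefore gave no check of the cell type, since it holds no level. The RNA came from many cells together, so fewer expressing cells and less RNA per cell cannot be told apart in any of the ratios below.

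Most proteins named Zfp carry C2H2 zinc fingers, short loops held by zinc that read DNA bases in tandem. Many of them belong to the KRAB family, whose KRAB domain recruits the corepressor Trim28 and, through it, the histone methyltransferase Setdb1 and heterochromatin proteins to silence transposable elements and other DNA. A small CCCH branch, here Zfp36l1 and Zfp36l2, does not act on DNA but binds AU-rich elements of mRNA and promotes its decay, a means by which macrophages limit cytokine mRNA.

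LPS lowered more Zfp genes than it raised at each of the 4 times. At 30 min 0 of 87 rose and 2 fell (0.725% and 0.319% of all genes tested rose and fell), with 2 and 8 at an unadjusted p under 0.05. Of all 11593 genes 219 rose and 173 fell at that unadjusted threshold. At 1 h 2 rose and 18 fell (3.13% and 2.48% of all genes). At 2 h 6 rose and 15 fell (7.84% and 8.18%), and at 4 h 5 rose and 21 fell (12.7% and 15.9%). The falls at 1 h thus made up 20.7% of the Zfp genes, against 2.48% of all genes, while at 4 h the share was 24.1% against 15.9%. The median over the Zfp genes at 1 h was -0.09 and that over all genes was -0.01, with 67.8% and 53.4% of genes below 0. The count at 1 h leaned on set 1: without it 11 Zfp genes were called, 9 of them falls, and 0.621% of all genes fell. Without set 1 the counts were also 1 at 30 min and 12 at 2 h, and without set 3 the count at 30 min was 1. Of all genes 0.561% and 0.181% rose and fell at 30 min without set 1, and 4.62% and 3.99% at 2 h. At 30 min without set 3 these shares were 0.526% and 0.129%.

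**Figure D1:**
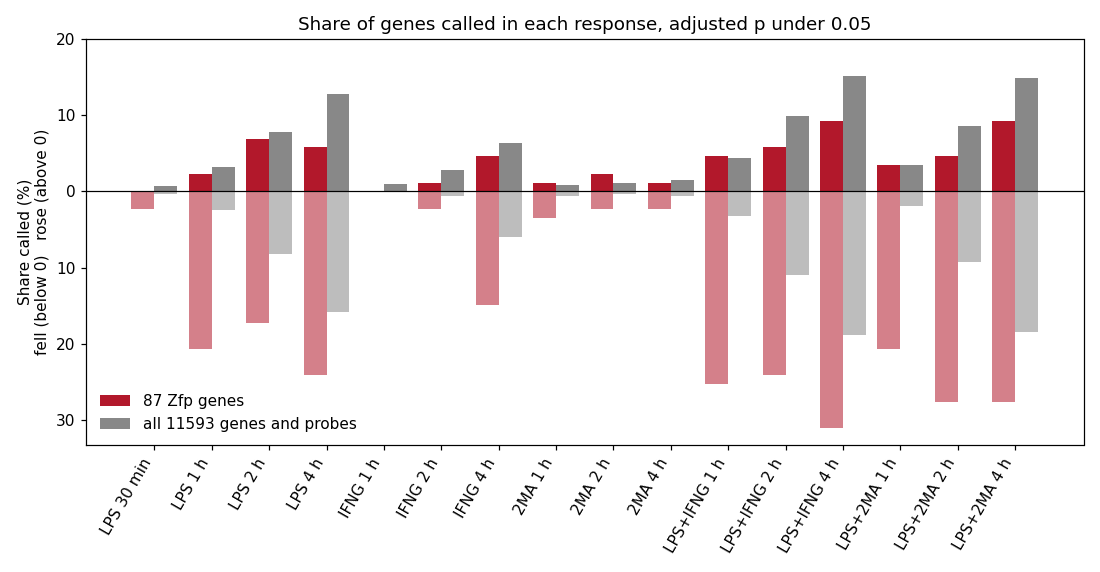
Share of genes called in each of the 16 responses, in percent, for the 87 Zfp genes (red) and for all 11593 genes and unnamed probes tested (grey). Bars above 0 are genes that rose and bars below 0 genes that fell; at 1 h of LPS 20.7% of the Zfp genes and 2.48% of all genes fell.

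Zfp398 (Entrez gene 272347), which encodes a KRAB zinc finger protein, had the lowest mean of the Zfp genes at 30 min of LPS. Its values in sets 1, 2 and 3 were -1.47, -1.49 and -1.62 at 30 min, and all 6 arrays were below 0. This is a level 2.88-fold lower than in untreated cells (-1.53 ± 0.08, adjusted p = 4.604e-09). At 1 h the 3 sets read -1.09, -0.60 and -0.89, and at 2 h -0.77, -1.02 and -0.25. The sets at 2 h did not overlap those at 30 min and lay closer to 0. At 4 h they were back at -1.57, -1.48 and -1.59, a level 2.92-fold lower (adjusted p = 1.610e-10). The response of Zfp398 differed over the 4 LPS times (F test, adjusted p = 0.00259), with means of -1.53, -0.86, -0.68 and -1.55 in order of time. The call at 2 h was lost without set 2 (adjusted p = 0.0639).

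The only other Zfp gene called at 30 min was Zfp292, a large zinc finger protein gene, at -0.56, -0.60 and -1.26 in the 3 sets. It fell by 0.81 on the log2 scale (SD 0.39, adjusted p = 0.0232), and set 3 stood below the other sets. The call was lost without set 1 (adjusted p = 0.328), without set 3 (adjusted p = 0.963), and where sets with 1 dye orientation were counted (adjusted p = 0.119). At 1, 2 and 4 h Zfp292 was at 0.05 ± 0.34, -0.17 ± 0.34 and -0.04 ± 0.18, with no call.

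Of the 18 falls at 1 h of LPS, none was past a 2-fold change. Zfp398 was followed by Zfp958 at -0.80 ± 0.18, Zfp53 at -0.77 ± 0.29, Zfp90 at -0.74 ± 0.05, Zfp788 at -0.66 ± 0.22 and Zfp54 at -0.62 ± 0.05. Zfp346, which encodes the double-stranded RNA binding protein JAZ, was at -0.59 ± 0.24. Zfp354a, the KRAB gene also known as Kid-1, was at -0.54 ± 0.13. The remaining 10 that fell were Zfp93, Zfp101, Zfp40, Zfp94, Zfp810, Zfp120, Zfp467, Zfp1, Zfp524 and Zfp639, between -0.59 and -0.32. Zfp40 had only 2 of 3 sets at this time. The call of Zfp958 was lost without set 1 (adjusted p = 0.0691), with its sets at -0.81, -0.61 and -0.98 and all 6 arrays below 0.

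**Figure D2:**
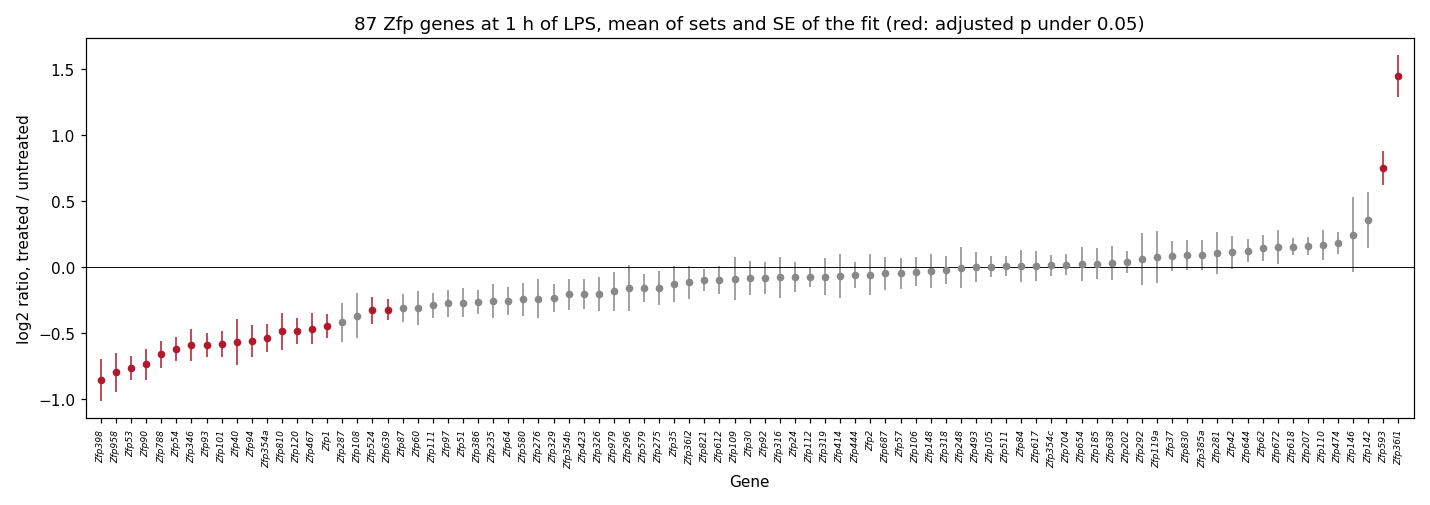
Mean log2 ratio of treated over untreated cells at 1 h of LPS for each of the 87 Zfp genes, ranked, with the standard error of the fit as bars and genes with an adjusted p under 0.05 in red. Zfp398 lies lowest at -0.86, and Zfp36l1 lies highest at 1.45.

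Of the 18 Zfp genes that fell at 1 h, 13 (72.2%) also fell at 2 h, where they made up 86.7% of the 15 falls, and 13 fell at 4 h, where they made up 61.9% of the 21. Of all 287 genes that fell at 1 h, 67.2% fell at 2 h and 65.2% at 4 h. All 3 times shared 11 genes: Zfp398, Zfp524, Zfp958, Zfp40, Zfp101, Zfp810, Zfp788, Zfp354a, Zfp53, Zfp639 and Zfp120. Of 87 Zfp genes 18 (20.7%) differed over the 4 LPS times by the F test, as did 16.7% of all genes, and the number was 5 without set 1 and 9 without set 3. The share of all genes by this F test was not counted with a set left out.

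The course of the falls differed from gene to gene. Zfp524, which encodes a protein that binds telomeric repeats, was at 0.02, 0.04 and 0.01 in the 3 sets at 30 min. At 1 h its sets were -0.31, -0.42 and -0.27, at 2 h -1.19, -0.90 and -0.71, and at 4 h -1.33, -1.38 and -1.27. Its sets did not overlap between any of the 4 times (F test, adjusted p = 2.899e-09). Zfp90, a KRAB gene, showed another course: it was at -0.74, -0.79 and -0.69 at 1 h, but at 0.10, -0.52 and 0.02 at 2 h and at -0.04, -0.23 and 0.29 at 4 h (F test, adjusted p = 0.00434). Its 3 sets at 1 h lay below all its sets at the other LPS times. Zfp93 was likewise called at 1 h only among the LPS times (F test, adjusted p = 0.00364). Zfp101 fell at 1 h (-0.59 ± 0.02), at 2 h (-0.36 ± 0.14) and at 4 h (-0.87 ± 0.23), and its F test (adjusted p = 0.00204) was lost without set 1 (adjusted p = 0.319). Zfp788 was called at 3 times at similar size, at -0.66 ± 0.22, -0.57 ± 0.09 and -0.61 ± 0.01 at 1, 2 and 4 h, from -0.03 ± 0.19 at 30 min.

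Some falls came later. Zfp248 was at -0.01 ± 0.25 at 1 h, and fell at 2 h (-0.53 ± 0.11) and 4 h (-0.63 ± 0.23). Zfp111 fell at 4 h, with all sets below 0 (-0.51 ± 0.10), and its F test (adjusted p = 0.00163) was lost without set 1 (adjusted p = 0.161) and without set 2 (adjusted p = 0.0854). Zfp326, part of a complex that links transcript elongation to splicing, was at -0.37 ± 0.18 at 4 h, and Zfp318, which shapes immunoglobulin D splicing in B cells, at -0.30 ± 0.09, both called. Zfp64, Zfp329 and Zfp474 completed the falls at 4 h, between -0.38 and -0.22.

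Far fewer Zfp genes rose, and the CCCH gene Zfp36l1 (Entrez gene 12192) rose most. At 30 min of LPS its sets were at 0.00, 0.12 and 0.12. At 1 h they were at 1.87, 1.60 and 0.88, at 2 h at 2.16, 2.27 and 1.75, and at 4 h at 2.14, 2.13 and 1.64, so all 3 later times lay above 30 min in every set. At 2 h Zfp36l1 was 4.18-fold higher than in untreated cells (adjusted p = 2.540e-13), and its response differed over time (F test, adjusted p = 5.304e-09). A second Zfp36l1 probe had too few values to be tested and read -0.09 at 2 h and 0.10 at 4 h, so the rise was seen with 1 of 2 probes. Its close relative Zfp36l2 moved the other way: it was at -0.12 ± 0.18 at 1 h and fell at 2 h (-0.66 ± 0.17, adjusted p = 0.000147) and 4 h (-0.53 ± 0.06, adjusted p = 0.00107), with all 6 arrays below 0 at both.

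Zfp275 was at -0.16 ± 0.05 at 1 h of LPS, with 6 of 6 arrays below 0 but no call, and was then up at 2 h, with sets at 1.59, 1.07 and 1.75 (2.77-fold higher, adjusted p = 2.256e-11). At 4 h it was at 1.17 and 1.16 in the 2 sets with a value. Its sets at 2 and 4 h were all above those at 30 min and 1 h (F test, adjusted p = 9.089e-09). Zfp281, a factor of the embryonic stem cell network, rose at 4 h, with sets at 0.92, 0.40 and 1.10 (adjusted p = 9.692e-05). Zfp593, related to a yeast ribosome assembly factor, rose early, by 0.75 ± 0.29 at 1 h and 0.62 ± 0.03 at 2 h, and was at 0.27 ± 0.26 at 4 h with no call. Zfp287, a gene with SCAN and KRAB domains, was at -0.42 ± 0.26 at 1 h (no call) and rose at 4 h (0.49 ± 0.18, adjusted p = 0.00859), a call lost without set 1 (adjusted p = 0.0738) and without set 2 (adjusted p = 0.113). Zfp638, linked to silencing of unintegrated retroviral DNA, was called at 2 h (0.37 ± 0.16), and each left-out set ended the call (adjusted p from 0.0604 to 0.259). Zfp423 (0.40 ± 0.07) was called at 2 h, a call lost without set 1 (adjusted p = 0.0741) and without set 3 (adjusted p = 0.115). Zfp202 (0.31 ± 0.06) also rose at 2 h and Zfp821 (0.22 ± 0.13) at 4 h.

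**Figure D3:**
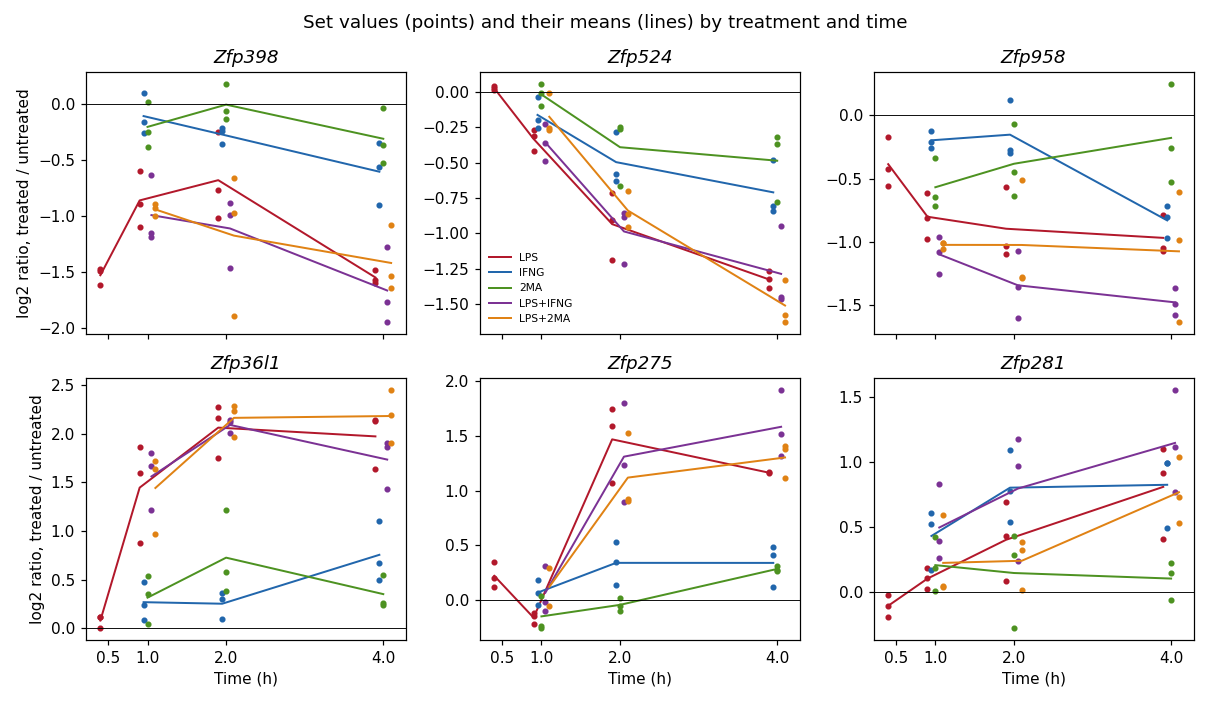
Set values (points) and their means (lines) for 6 Zfp genes against time in hours, coloured by treatment, as log2 ratios of treated over untreated cells. With LPS alone Zfp398 was at -1.53 at 30 min and -1.55 at 4 h, while Zfp36l1 rose from 0.08 at 30 min to 2.06 at 2 h.

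Promoter sequence was set beside these courses for genes with large responses. The sequences are the 120 bases before the annotated start in RefSeq (GRCm38.p6), read 5′ to 3′ on the strand of the gene. Zfp398 is the early fall, at chr6:47835541-47835660 (plus strand). Zfp101, at chr17:33394638-33394757 (minus), Zfp788, at chr7:41633411-41633530 (plus), and Zfp958, at chr8:4613050-4613169 (plus), are falls at 1 h. Zfp36l1, at chr12:80113014-80113133 (minus), and Zfp275, at chrX:73342500-73342619 (plus), are the largest rises. Capitals mark CCAAT, or ATTGG where it lies on the opposite strand.
Zfp398: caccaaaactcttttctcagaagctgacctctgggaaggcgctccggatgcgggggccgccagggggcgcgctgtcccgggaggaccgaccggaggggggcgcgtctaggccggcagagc
Zfp101: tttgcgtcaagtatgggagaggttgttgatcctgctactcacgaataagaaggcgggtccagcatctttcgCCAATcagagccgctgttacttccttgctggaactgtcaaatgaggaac
Zfp788: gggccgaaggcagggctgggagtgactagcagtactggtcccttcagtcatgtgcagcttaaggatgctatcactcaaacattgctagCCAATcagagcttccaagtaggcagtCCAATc
Zfp958: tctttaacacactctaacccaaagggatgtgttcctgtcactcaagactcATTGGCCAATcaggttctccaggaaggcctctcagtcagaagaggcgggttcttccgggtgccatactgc
Zfp36l1: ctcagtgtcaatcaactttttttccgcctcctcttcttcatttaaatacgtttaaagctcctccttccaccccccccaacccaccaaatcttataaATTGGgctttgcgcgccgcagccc
Zfp275: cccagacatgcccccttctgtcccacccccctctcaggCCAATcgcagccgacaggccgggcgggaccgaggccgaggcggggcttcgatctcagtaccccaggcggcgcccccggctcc

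These stretches held 0 matches in Zfp398, 1 each in Zfp101, Zfp36l1 and Zfp275, and 2 each in Zfp788 and Zfp958. In Zfp101, Zfp788 and Zfp958 a match read on as CCAATCA, a longer form searched for after these letters had been seen. In windows of 300 bases, with 250 before and 50 after the start and both strands searched, CCAATCA was in 4 of 14 Zfp genes with a window that fell at 1 h of LPS (28.6%), namely Zfp101, Zfp120, Zfp788 and Zfp958. All of these but Zfp120 are the genes in which the form had been seen. Their share was thus largely set by how the form was chosen, and no conclusion is drawn from it. CCAATCA was in 11 of 69 tested Zfp genes with a window (15.9%), in 2 of 31 that were called in no response (6.45%) and in 8.2% of all 27025 genes with a window. The shorter CCAAT, which overlaps it, was in 50% of the falls at 1 h, 44.9% of the tested Zfp genes and 37.9% of all genes. GGGCGG, the core of a GC box, was in 42.9%, 52.2% and 35.9% of these, and CCGGAAG, an ETS family motif, in 21.4%, 18.8% and 9.12%. TTCNNNGAA, the palindrome of STAT factors, was in 35.7%, 20.3% and 8.47%. The NF-kB consensus was in 0 of 14, in 7.25% and in 4.35%. These are matches of letters in a window, with no test and no measure of binding.

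Zfp genes often lie side by side as related copies. Of the runs on the array, Zfp54, Zfp51 and Zfp53 are 3 adjacent genes. At 1 h of LPS Zfp54 and Zfp53 fell, while Zfp51 was at -0.27 with no call (adjusted p = 0.199). In a run of 7 Zfp genes among 9 consecutive protein-coding genes, Zfp93 and Zfp94 fell, and Zfp112, Zfp235, Zfp111, Zfp109 and Zfp108 were between -0.08 and -0.37 with no call. Whether probes of related copies bind each other's RNA was not tested. Of 9 Zfp genes with 2 probes, 8 had values of both in at least 1 group. The probes of Zfp36l1, of which 1 was tested, differed by up to 2.16, and those of Zfp60, both tested, by up to 1.09, with -0.44 and 0.57 at 4 h of LPS. The other 6 differed by 0.39 or less in every group.

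IFNG alone moved few Zfp genes before 4 h. At 1 h limma called 0 of 87 (1.00% of all genes rose and 0.129% fell), with 2 rises and 3 falls at an unadjusted p under 0.05. Of all 11593 genes 356 rose and 245 fell at that unadjusted threshold. At 2 h 1 rose and 2 fell (2.83% and 0.604% of all genes), a count of 3 that became 1 without set 1 or without set 3. Of all genes 1.73% and 0.164% then rose and fell without set 1, and 2.3% and 0.397% without set 3. At 4 h 4 rose and 13 fell (6.31% and 5.99% of all genes), a count of 17 that became 7 without set 1 and 9 without set 3. Of all genes 4.31% and 2.81% then rose and fell without set 1, and 5.05% and 4.11% without set 3. Zfp398 was at -0.11 ± 0.18 at 1 h and -0.27 ± 0.08 at 2 h, with no call, and at 4 h its sets were at -0.90, -0.35 and -0.56 (adjusted p = 0.00564), a call lost without set 1 (adjusted p = 0.230). Zfp958 reached -0.71, -0.80 and -0.97 at 4 h, well apart from its sets at 1 h, which lay between -0.25 and -0.12.

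Zfp524 fell at 2 h of IFNG (-0.50 ± 0.18) and 4 h (-0.71 ± 0.20), and so did Zfp346 (-0.53 ± 0.16 and -0.64 ± 0.11). Zfp281 was the largest rise, with sets at 0.77, 0.54 and 1.09 at 2 h and 0.99, 0.49 and 0.99 at 4 h, all 6 arrays above 0 each time. At 2 h the calls of Zfp281 (adjusted p = 0.0718) and Zfp524 (adjusted p = 0.0815) were lost without set 1, and that of Zfp346 without set 2 (adjusted p = 0.169). Those of Zfp281 (adjusted p = 0.0785) and Zfp346 (adjusted p = 0.119) were also lost without set 3. Zfp36l1 rose at 4 h to 0.67, 1.10 and 0.50, a call lost without set 2 (adjusted p = 0.0868), and with sets of 1 orientation, where its second probe enters the mean, it was at 0.28 (adjusted p = 0.509). The other rises at 4 h were Zfp474 and Zfp821 (0.26 ± 0.03), and each left-out set ended the call of Zfp821. Further falls at 4 h were Zfp235, Zfp810, Zfp788, Zfp354a, Zfp111, Zfp101, Zfp93, Zfp423 and Zfp64, between -0.56 and -0.33. Of these, Zfp788 (adjusted p = 0.0536), Zfp101 (adjusted p = 0.0803) and Zfp111 (adjusted p = 0.244) were not called without set 1, nor Zfp101 without set 3 (adjusted p = 0.146).

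2MA alone called 4, 4 and 3 Zfp genes at 1, 2 and 4 h. At 1 h 1 rose and 3 fell (0.794% and 0.612% of all genes), at 2 h 2 rose and 2 fell (1.03% and 0.302%), and at 4 h 1 rose and 2 fell (1.42% and 0.578%). All 3 counts became 0 without set 1, where 0.173%, 0.104% and 0.112% of all genes rose and 0% fell. The count at 1 h became 2 without set 3, where 0.802% and 0.405% of all genes rose and fell. Zfp423, a gene known from commitment of preadipocytes, was at 1.15, 0.18 and 0.45 in the 3 sets at 2 h and at 1.12, 0.49 and 0.67 at 4 h, with 6 of 6 arrays above 0 at both. Its means were 0.60 ± 0.50 (adjusted p = 0.00182) and 0.76 ± 0.32 (adjusted p = 5.4e-05), and without set 1 they were 0.32 (adjusted p = 1.000) and 0.58 (adjusted p = 0.0702).

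At 1 h of 2MA Zfp593 rose (0.50 ± 0.24), and Zfp958 (-0.57 ± 0.20), Zfp287 (-0.61 ± 0.44) and Zfp386 (-0.35 ± 0.19) fell. At 2 h Zfp36l1 rose (0.73 ± 0.44, sets at 1.22, 0.58 and 0.38), and Zfp346 (-0.58 ± 0.24) and Zfp524 (-0.39 ± 0.24) fell. The rise of Zfp36l1 was also lost without set 2 (adjusted p = 0.0584) and with sets of 1 orientation (0.27, adjusted p = 0.957). At 4 h Zfp524 (-0.49 ± 0.25) and Zfp36l2 (-0.47 ± 0.31) fell. Besides the losses without set 1, the call of Zfp524 at 2 h was lost without set 2 (adjusted p = 0.0506) and set 3 (adjusted p = 0.0963), and that of Zfp36l2 at 4 h without set 3 (adjusted p = 0.619). The call of Zfp593 was lost without set 3 (adjusted p = 0.0812), and that of Zfp386 without set 2 (adjusted p = 0.163), without set 3 (adjusted p = 0.0625) and with a dye term over all arrays (adjusted p = 0.0618). Zfp398 was not called with 2MA at any of the 3 times, with means of -0.20, 0.00 and -0.31.

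With LPS and a second ligand, too, more Zfp genes fell than rose at each time. With LPS+IFNG 4 Zfp genes rose and 22 fell at 1 h (4.43% and 3.19% of all genes), 5 rose and 21 fell at 2 h (9.89% and 10.9%), and 8 rose and 27 fell at 4 h (15.2% and 18.8%). With LPS+2MA 3 rose and 18 fell at 1 h (3.47% and 1.98%), 4 rose and 24 fell at 2 h (8.57% and 9.23%), and 8 rose and 24 fell at 4 h (14.9% and 18.5%). Without set 1 the counts at 1 h were 16 in place of 26 with LPS+IFNG and 10 in place of 21 with LPS+2MA. Of all genes 2.77% and 1.07% then rose and fell with LPS+IFNG, and 2.19% and 0.716% with LPS+2MA. The median of the Zfp genes was -0.14, -0.12 and -0.10 with LPS+IFNG and -0.11, -0.16 and -0.06 with LPS+2MA at 1, 2 and 4 h, and the 6 medians over all genes lay between -0.01 and 0.00.

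With LPS+IFNG Zfp398 was at -0.99 ± 0.31, -1.11 ± 0.31 and -1.66 ± 0.35 at 1, 2 and 4 h, and with LPS+2MA at -0.94 ± 0.06, -1.17 ± 0.64 and -1.42 ± 0.30. All 6 arrays were below 0 in each of these groups. Zfp958 had its lowest mean with LPS+IFNG at 4 h, with sets at -1.36, -1.58 and -1.49, and Zfp524 with LPS+2MA at 4 h, with sets at -1.63, -1.33 and -1.57. Zfp53 was at -1.07 ± 0.13 with LPS+IFNG and -0.92 ± 0.12 with LPS+2MA at 1 h. Zfp346 was at -1.17 ± 0.20 and -1.07 ± 0.35 at 2 h. Zfp90 was again low at 1 h (-0.76 ± 0.22 and -0.63 ± 0.14) and without a call at 2 and 4 h in both. The rises were led by Zfp36l1, up to 2.18 ± 0.27 with LPS+2MA at 4 h, Zfp275, up to 1.58 ± 0.31 with LPS+IFNG at 4 h, and Zfp281, up to 1.14 ± 0.39 there. Zfp617 (0.59 ± 0.24), Zfp654 (0.60 ± 0.25) and Zfp821 (0.55 ± 0.24) also rose with LPS+IFNG at 4 h.

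**Figure D4:**
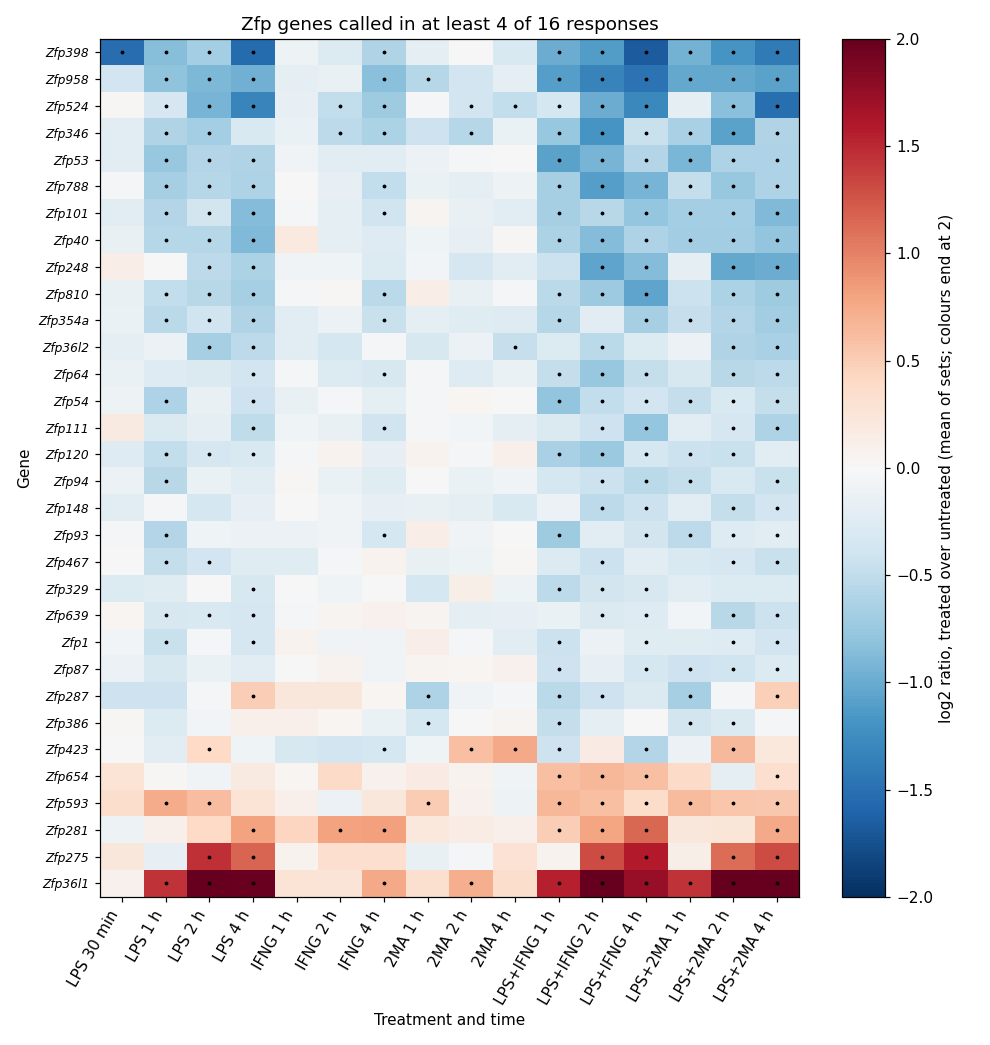
Mean log2 ratio of treated over untreated cells in each of the 16 groups for the Zfp genes called in at least 4 of them, with a dot where the adjusted p is under 0.05. Colours end at 2; Zfp398 is the only row with a dot at 30 min, and the columns with LPS at 1, 2 and 4 h hold most of the dots.

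The responses with a second ligand were then set against LPS at the same time, as differences of log2 ratios ± SE. The first fit did not pair the sets. With IFNG added, 2 Zfp genes differed at 2 h, 1 up and 1 down (2.04% and 0.707% of all genes), and 0 up and 1 down at 4 h (2.61% and 1.54%). Zfp654 was higher by 0.73 ± 0.18 at 2 h (adjusted p = 0.0171): its sets were at 0.93, 0.27 and 0.81 with LPS+IFNG and at 0.20, -0.20 and -0.21 with LPS. Zfp788 was lower at 2 h, by a difference of -0.52 ± 0.14 (adjusted p = 0.0349), with sets at -1.09, -0.84 and -1.36 against -0.66, -0.57 and -0.49. Zfp287 was lower at 4 h, with a difference of -0.78 ± 0.21 (adjusted p = 0.0177): it stood at -0.12, -0.41 and -0.34 with LPS+IFNG and at 0.56, 0.63 and 0.29 with LPS. These 3 cases were picked by calls on the same set values, so how far their sets lie apart adds no support. All 3 calls were lost without set 1 (adjusted p of 0.0848, 0.358 and 0.122). Zfp654 and Zfp788 also lost theirs without set 3 (adjusted p of 0.497 and 0.488), and Zfp287 without set 2 (adjusted p = 0.318).

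In these differences sets with the same number deviated together, and with the set number within each time as a block more Zfp genes differed. At 1 h 1 was higher, Zfp654 (0.58 ± 0.15, adjusted p = 0.0308), and 0 were lower, where 1.35% of all genes were higher and 0.138% lower. At 2 h 3 were higher, Zfp654, Zfp316 and Zfp821, and 5 were lower, Zfp788, Zfp248, Zfp346, Zfp53 and Zfp64. These are 3.45% and 5.75% of the Zfp genes, where 3.76% of all genes were higher and 2.26% lower. At 4 h 2 were higher, Zfp318 (0.42 ± 0.11) and Zfp821 (0.34 ± 0.10), where 4.39% of all genes were higher. At the same time 4 were lower, Zfp287, Zfp958 (-0.51 ± 0.14, adjusted p = 0.0174), Zfp423 (-0.50 ± 0.15) and Zfp810 (-0.39 ± 0.11), where 3.86% of all genes were lower.

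Without the block limma called 0 Zfp genes for LPS+IFNG against LPS at 1 h (0.966% of all genes higher and 0.0431% lower), with 1 higher and 1 lower at an unadjusted p under 0.05. Of all 11593 genes 271 were higher and 83 lower at that unadjusted threshold. With 2MA added it called 0 at 1 h (0.0776% and 0% of all genes), 0 at 2 h (0.0949% and 0%) and 0 at 4 h (0.285% and 0.069%). The counts with the block were also 0, where 0.19%, 0.423% and 1.73% of all genes differed in either direction at 1, 2 and 4 h. At an unadjusted p under 0.05 without the block there were 1 higher and 1 lower at 1 h, 0 and 6 at 2 h, and 2 and 0 at 4 h. Of all 11593 genes 197 were higher and 54 lower at 1 h at that threshold. These numbers were 340 and 216 at 2 h, and 399 and 265 at 4 h. For Zfp398 the difference of LPS+2MA from LPS at 4 h was 0.13 (95% interval -0.32 to 0.58), and for Zfp36l1 it was 0.21 (-0.24 to 0.66), and both intervals span 0. At 2 h the difference for Zfp398 was -0.50 (-0.94 to -0.05), which did not pass the adjusted threshold (adjusted p = 0.954).

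Genes of the proteins through which KRAB zinc fingers silence DNA were read as RNA ratios from the same arrays, with 19 of 23 listed genes tested. Protein levels were not measured. At 30 min of LPS 0 rose and 0 fell, where 0.725% and 0.319% of all genes did. At an unadjusted p under 0.05 the counts were also 0 and 0, against 219 and 173 of all 11593 genes. At 1 h 2 rose, Mta2 (0.29 ± 0.16) and Chd4 (0.26 ± 0.14), both of a deacetylase complex, and 1 fell, Setdb1 (-0.35 ± 0.31), where 3.13% and 2.48% of all genes rose and fell. At 4 h 2 rose (10.5%) and 5 fell (26.3%), where 12.7% and 15.9% of all genes did. Uhrf1, which brings Dnmt1 to replicated DNA, was at -0.67 ± 0.24 and Dnmt1, the maintenance DNA methyltransferase, at -0.66 ± 0.10. Daxx, a histone chaperone, was at 3.01 ± 0.09 and Atf7ip at 0.38 ± 0.33. With LPS+IFNG at 4 h 1 rose, Daxx (3.01 ± 0.22), and 8 fell, led by Trim28, the KRAB corepressor (-0.88 ± 0.11), and Dnmt1 (-0.82 ± 0.17), where 15.2% and 18.8% of all genes rose and fell.

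Other zinc finger families on the array were small. At 1 h of LPS 3 of 15 Zbtb genes tested rose and 2 fell (20% and 13.3%), where 3.13% and 2.48% of all genes did. Of 4 Zkscan genes 0 rose and 1 fell (25%) at that time. At 4 h of LPS 3 Zbtb genes rose and 4 fell, where 12.7% and 15.9% of all genes did. They included Zbtb22 at 2.33 ± 0.55, Zbtb32 at 1.43 ± 0.19, Zbtb4 at -1.51 ± 0.28 and Zbtb1 at -0.91 ± 0.06. Of 12 Klf genes, 2 rose and 0 fell at 1 h of LPS, Klf10 (1.78 ± 0.87) and Klf6 (0.97 ± 0.27), with 2 at an unadjusted p under 0.05 below 0, where 3.13% of all genes rose and 2.48% fell. Of all 11593 genes 881 were below 0 at that unadjusted threshold. Of 4 Zkscan genes 1 fell at 30 min of LPS, Zkscan14 (-0.38 ± 0.18), where 0.319% of all genes fell, and it was at -0.41 ± 0.23 at 4 h. Of 4 Zscan genes 1 fell at 1 h of LPS, Zscan12 (-0.36 ± 0.08), where 2.48% of all genes fell.

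Over all 16 responses 51 of 87 Zfp genes were called at least once (58.6%, against 49.4% of all genes tested) and 36 were called in none. With Zfp36l1 and Zfp36l2 set aside, 18 of the other 85 fell and 1 rose at 1 h of LPS, so the falls there were all outside the CCCH branch.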

How the data were processed

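Each of the 96 samples is a 2-colour array, with groups, sets, dyes, doses and times from the labels. The deposited log2 values were read as ratios of Cy5 to Cy3, with image analysis and normalisation not given in the sources used here. A value of exactly 0 was taken as missing, and signs were turned where treated RNA was in Cy3. A set value is the mean of both dye orientations. A probe was tested if at least 2 of 3 sets had a value in every group. Probes of a gene were averaged. Symbols came from the platform annotation and the mouse RefSeq gene table, which held all 92 Zfp genes. The promoter table held 73.

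Files were read with R's data.table (version 1.17.8; R 4.3.3). limma 3.58.1 fitted 1 mean per group to all 48 set values with empirical Bayes (32 residual and 5.89 prior degrees of freedom), and p-values were two-sided and adjusted by Benjamini-Hochberg within each comparison over all 11593 genes and unnamed probes. The method was tested on simulated data with independent errors for each set value. That test cannot show how the unpaired fit behaves where sets with the same number deviate together. Plots used matplotlib 3.10.9 in Python 3.11.15. Dye-swapped arrays correlated between -0.78 and 0.38 before the sign was turned, above 0 in 9 of 48 pairs. These were sets 1 and 2 at 30 min of LPS and at 1 h of IFNG, and set 2 at 1 h of LPS. The others were set 2 at 1 h, sets 2 and 3 at 2 h and set 2 at 4 h of 2MA. The lowest correlation of same-orientation arrays within a group was 0.24. Deviations of sets with the same number correlated from 0.12 to 0.73 in every comparison of LPS and a second ligand with LPS. There a fit with the set number within each time as a block is given beside the main fit. For the F test over LPS times the block in the alternative run was the set number alone. The main fit did not pair the sets, and differences, SEs, p-values and intervals come from it unless the block is named. Between LPS times these deviations correlated from -0.30 to 0.42.

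The Zfp genes, the gene lists and the naming rule were chosen with earlier results of these data known. Named are Zfp398, the CCCH genes, the 5 largest rises and falls per response among called genes of 1 sign on all arrays, the 3 largest per difference and the 5 smallest p-values over LPS times. Others were named to account for the calls, and their calls were not followed one by one when a set was left out. Most named genes were picked by calls on the same set values. Sets that lie apart in such a gene describe its course and add no support to its call.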

Additional observations from a re-analysis of the deposited data

Results flagged for a closer look

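These Zfp genes responded differently at different times or with a second ligand by a test of the difference itself. Over the 4 LPS times the F test gave an adjusted p of 2.899e-09 for Zfp524, 5.304e-09 for Zfp36l1, 9.089e-09 for Zfp275, 0.00163 for Zfp111 and 0.00204 for Zfp101. The first 3 calls held without any 1 set, and the last 2 were lost without set 1 (adjusted p of 0.161 and 0.319). At 2 h LPS+IFNG minus LPS was 0.7339 for Zfp654 and -0.5211 for Zfp788, and at 4 h it was -0.7849 for Zfp287. These 3 were not called without set 1.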

How the results depend on the processing

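Single genes were followed through the alternative runs only for the results picked by the naming rule. No called result among these changed sign, but some near 0 and not called did, such as Zfp398 with 2MA at 2 h (0.00, and 0.06 without set 2). Whether the other calls named above hold in these runs was not tested gene by gene. Leaving out 1 set in turn gave 1 to 2 Zfp genes called at 30 min of LPS, 11 to 18 at 1 h, 12 to 17 at 2 h and 19 to 23 at 4 h. Of all genes 0.509% to 0.561% rose and 0.129% to 0.207% fell at 30 min in these runs. At 1 h 1.73% to 2.63% rose and 0.621% to 1.92% fell. These shares were 4.62% to 7.01% and 3.99% to 7.27% at 2 h, and 8.61% to 11.8% and 9.82% to 13.8% at 4 h. IFNG gave 0 Zfp genes at 1 h, 1 to 2 at 2 h and 7 to 16 at 4 h, and 2MA 0 to 5, 0 to 5 and 0 to 3. With IFNG 0.656% to 0.966%, 1.73% to 2.3% and 4.31% to 6.51% of all genes rose in order of time. Falls with IFNG made up 0.0345% to 0.138%, 0.164% to 0.397% and 2.81% to 5.36%. For 2MA the rises were 0.173% to 0.854%, 0.104% to 1.16% and 0.112% to 1.38%. The falls were 0% to 2.17%, 0% to 0.681% and 0% to 0.595%. LPS+IFNG gave 16 to 23, 20 to 30 and 25 to 32 Zfp genes, and LPS+2MA 10 to 20, 19 to 28 and 22 to 30. With LPS+IFNG 2.77% to 3.98%, 6.53% to 12.5% and 10.6% to 15.3% of all genes rose. Falls with LPS+IFNG made up 1.07% to 2.88%, 5.93% to 10% and 13% to 18.1%. For LPS+2MA the rises were 2.19% to 2.93%, 5.93% to 7.26% and 11.5% to 14.1%. The falls were 0.716% to 1.66%, 5.27% to 7.54% and 12.4% to 16.3%. Against LPS, LPS+IFNG gave 0, 0 to 2 and 0 to 1 Zfp genes, and LPS+2MA 0 each time. With IFNG added, at most 0.863%, 1.47% and 2.02% of all genes were then higher. At most 0.0345%, 0.328% and 1.04% were lower. With 2MA added, at most 0.0949%, 0.0518% and 0.0863% were higher, and at most 0%, 0% and 0.00863% lower. The F test over LPS times gave 5 to 15 Zfp genes, and the share of all genes was not counted there. Without set 1 fewer of all genes were called as well in each of the 16 responses. At 4 h of LPS, for example, 8.61% and 9.82% of all genes then rose and fell, in place of 12.7% and 15.9%. With the replicate block LPS+IFNG against LPS gave 1, 8 and 6 at 1, 2 and 4 h. IFNG then gave 1 at 1 h and 5 at 2 h (of all genes 1.98% and 6.05% were called). The counts for 2MA were 12 at 1 h and 6 at 4 h (5.28% and 6.28% of all genes). In responses against untreated cells this block takes the spread shared by sets of the same number out of the error. Such counts of responses therefore do not treat the sets as full replicates, and no conclusion is drawn from them. No other count with the block moved by over 1.5 times. With values needed in all 3 sets, 68 Zfp genes were tested and 2MA gave 2 at 2 h and 1 at 4 h. Of all genes 1.27% and 0.288% then rose and fell at 2 h, and 1.7% and 0.68% at 4 h. A dye term over all arrays gave 7 for 2MA at 1 h, where 1.62% and 2.59% of all genes rose and fell. It gave 2 for LPS+IFNG against LPS at 4 h, where 3.44% and 2.67% were higher and lower. Counting sets with 1 dye orientation, an alternative chosen after seeing the data, gave 1 at 30 min of LPS, where 0.692% and 0.288% of all genes rose and fell. Keeping zeros as 0, centring arrays, a looser filter and 1 probe per gene moved no count by over 1.5 times. The cause of these shifts was not tested. Only ratios were given, so signal over background is unknown.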
